A study of Homo sapiens with 42 samples.

Results

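The comparison described here held the HIF-2α intrinsically disordered region (IDR) fixed and exchanged the structured domain in front of it. It asks what the structured domain changes when the IDR is the same, and set 3 libraries of 786-O cells expressing the chimera HIF-1α/2α against 3 libraries of 786-O cells expressing HIF-2α, chosen by their titles, which makes 6 of the 42 libraries of the series. The series is poly(A) RNA-seq of 786-O cells, a human clear cell renal carcinoma line that lacks a working VHL and makes HIF-2α but no functional HIF-1α, so that HIF-α is stable in normal oxygen. All 6 libraries came from the second of 2 batches, for which RNA was extracted with TRIzol. That batch also held 3 libraries each of wild-type (WT) cells, of cells with HIF-1α and of cells with the reverse chimera HIF-2α/1α, 15 in all.

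HIF-1α/2α joined residues 1 to 363 of HIF-1α (the DNA-binding and dimerization part) to residues 366 to 870 of HIF-2α (the IDR), and HIF-2α/1α joined residues 1 to 365 of HIF-2α to residues 364 to 826 of HIF-1α. Each protein carried an N-terminal V5 and HaloTag, was driven by the weak L30 promoter and was introduced by PiggyBac transposition with puromycin selection. The WT cells carried no transgene, and the endogenous HIF-2α of 786-O was present in all 5 groups. Each transgene was represented by 1 stable line, so the structured domain and any other difference between the lines cannot be told apart. The 3 libraries of a line were called biological replicates by the study, but no separate lines or donors stand behind them, and p-values measure the spread between these samples only.

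HIF transcription factors are dimers of an oxygen-regulated α subunit and the constant subunit HIF-1β (ARNT). The structured domain holds the basic helix-loop-helix and PAS parts that pair the subunits and read the hypoxia response element, a short DNA motif with the core ACGTG or GCGTG. The long IDR behind it holds the oxygen-dependent degradation domain and the transactivation domains. HIF-1α is best known for raising glycolytic enzymes and CA9, and HIF-2α for genes of growth, angiogenesis and matrix in renal carcinoma.

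The 6 libraries held 77168377 to 108727279 reads counted to genes, so that 3 counts, used as the floor of detection, stood for 0.0276 to 0.0389 CPM. Mitochondrial transcripts took 1.34% to 1.60% of the counts and the 10 genes with most reads 7.22% to 7.83%, so no library stood apart by these shares. Counts of replicates 1 and 3 of HIF-1α/2α differed more than those of any other pair of replicates, as given under processing. Renal carcinoma markers were present in each of the 6 libraries, with PAX8, a renal lineage factor, at 18610 to 19994 normalized counts in HIF-2α and 28649 to 32135 in HIF-1α/2α. CA9, another of the 10 markers, was low, at 5.77 to 9.91 in HIF-2α and 123 to 151 in HIF-1α/2α. The normalized count is the read count scaled to a common library size, and is not corrected for gene length. Markers of blood, endothelial, hepatic and stromal cells, 12 genes, summed to 80.8 to 98.1 normalized counts in HIF-2α and 42.8 to 55.3 in HIF-1α/2α, and CD3E had no reads in any of the 6.

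The transgenes were read first. HIF1A (chromosome 14: 61695513-61748259, hg38) had 839.7, 866 and 1101 normalized counts in the HIF-2α libraries and 10321, 9799 and 9081 in HIF-1α/2α. The groups did not overlap, and the log2 difference was 3.38 ± 0.08 (SE; quasi-likelihood test of edgeR, Benjamini-Hochberg adjusted p = 7.06e-33). The WT libraries held 261 to 313, below the HIF-2α line. EPAS1 (chromosome 2: 46293667-46386697), which encodes HIF-2α, had 42909, 42384 and 42329.7 normalized counts in HIF-2α, 52485, 53853 and 47952 in HIF-1α/2α and 11955 to 13537 in WT. The 2 lines differed by 0.27 ± 0.06 on the log2 scale (edgeR, adjusted p = 0.000165), a separation of 1.21-fold that did not reach the 2-fold asked of a call. Transgene and endogenous transcript cannot be told apart for either gene, and the chimera gives reads to both. The chimera carries only residues 366 to 870 of HIF-2α, so its transcript holds less EPAS1 sequence than the full HIF-2α transgene. The EPAS1 difference is therefore no measure of how the transgene levels of the 2 lines compare, which was not tested. ARNT differed by -0.13 ± 0.07 (edgeR, adjusted p = 0.192).

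Genes differed in both directions about equally between the HIF-1α/2α and HIF-2α lines. Of 28724 genes tested, 303 were called higher in HIF-1α/2α than in HIF-2α (1.05%) and 298 lower (1.04%), where a call needs an adjusted p of at most 0.01 and a difference of at least 2-fold (601 in all, 2.09%). HIF1A, whose reads include the chimera's transgene, was among the 303. The highest differences belonged to genes of quite different roles, among them the epidermal protease CASP14, the collagen chain COL5A1, glutamine synthetase GLUL and the carbonic anhydrase CA9. The lowest included the Wnt inhibitor NKD2, the procollagen peptidase ADAMTS2, the cytochrome P450 CYP1B1 and the semaphorin SEMA3B. Protein coding genes made up 474 of the 601 and long non-coding RNA genes 94. A difference of at least 4-fold was reached by 94 of the higher and 91 of the lower genes, and the median log2 difference was 1.56 among the higher and -1.52 among the lower. A mean of at least 100 normalized counts was held by 184 of the higher and 136 of the lower genes. The 2 groups did not overlap for 301 and 292 of them, beside 8544 of all genes tested (29.7%). In 17 of the higher genes HIF-2α, and in 17 of the lower genes HIF-1α/2α, was at or under the floor in all 3 libraries.

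WT cells place the called genes against the starting level. HIF-2α differed from WT in 1566 higher (5.45%) and 611 lower genes (2.13%), 2177 in all (7.58%), and HIF-1α/2α in 1465 higher (5.1%) and 770 lower genes (2.68%), 2235 in all (7.78%). The WT mean lay below both lines for 185 of the 303 higher genes (61.1%) and for 101 of the 298 lower genes (33.9%), beside 41.8% of all genes tested. It lay above both for 29 (9.57%) and 84 (28.2%), beside 33.4%, and between them for the others. Genes higher with the HIF-1α structured domain were thus mostly genes that both lines held above WT, while the lower genes were spread over the 3 positions. These positions reuse the libraries of the comparison and are given as a description.

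CASP14 (chromosome 19: 15049480-15058293), a caspase of cornifying epidermis, had 311, 179 and 317 normalized counts in HIF-2α and 5852, 5734 and 5546 in HIF-1α/2α. It was close to absent elsewhere, at 0 to 2.00 in the WT, HIF-1α and HIF-2α/1α libraries. The log2 difference on the HIF-2α IDR was 4.40 ± 0.13 (edgeR, adjusted p = 6.57e-29), or 21.2-fold. LHX5, a LIM-homeobox factor of the developing forebrain, was laid out in the same way, with 444, 427 and 447 normalized counts in HIF-2α and 3644, 4352 and 4441 in HIF-1α/2α. LHX5 had at most 2.22 in any WT, HIF-1α or HIF-2α/1α library. SH2D1B, an adaptor of immune cell receptors, had 112, 115 and 126 in HIF-2α and 1505, 1181 and 935 in HIF-1α/2α. It stood at 0 in all 3 WT libraries and at most at 4.44 in the lines with the HIF-1α IDR. For these 3 genes reads beyond a few were found only in lines with a transgene that carries the HIF-2α IDR, although endogenous HIF-2α was present in all groups. The chimera held the higher level in each of its 3 libraries.

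COL5A1 (chromosome 9: 134641803-134844843), the α1 chain of type V collagen, had 65.4, 38.1 and 66.9 normalized counts in HIF-2α and 1146, 1165 and 1266 in HIF-1α/2α, a log2 difference of 4.38 ± 0.17 (edgeR, adjusted p = 6.39e-24). WT held 25.0 to 37.2, and HIF-1α itself only 161 to 206, so the chimera exceeded both proteins it was made from. GLUL, which makes glutamine from glutamate, was highest in the chimera too, with 54.5, 71.6 and 37.6 in HIF-2α, 868, 871 and 1037 in HIF-1α/2α and 19.3 to 30.3 in HIF-1α (log2 difference 4.08 ± 0.27, edgeR, adjusted p = 2.55e-16). CNTN1, a neural adhesion protein, had 27.8, 41.6 and 21.1 in HIF-2α and 426, 366 and 484 in HIF-1α/2α. TIE1, an endothelial receptor tyrosine kinase, had 41.6, 27.7 and 17.6 against 263, 299.8 and 289. AUTS2, a neurodevelopmental regulator, had 84.3, 133 and 128 against 1078, 1046 and 1054, and FAM174B had 105, 105 and 119 against 1231, 1217 and 1251. Each of these 4 was called, with log2 differences of 3.82, 3.27, 3.21 and 3.49, and no library of HIF-2α reached a library of HIF-1α/2α. Counting ignored strand, and 8 genes are annotated antisense to FAM174B and 2 to COL5A1, whose reads cannot be told apart from theirs where they overlap. The same holds for other genes named below, such as GRIN2A and HHIP with 4 antisense genes each and COL23A1 with 3.

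**Figure D1:**
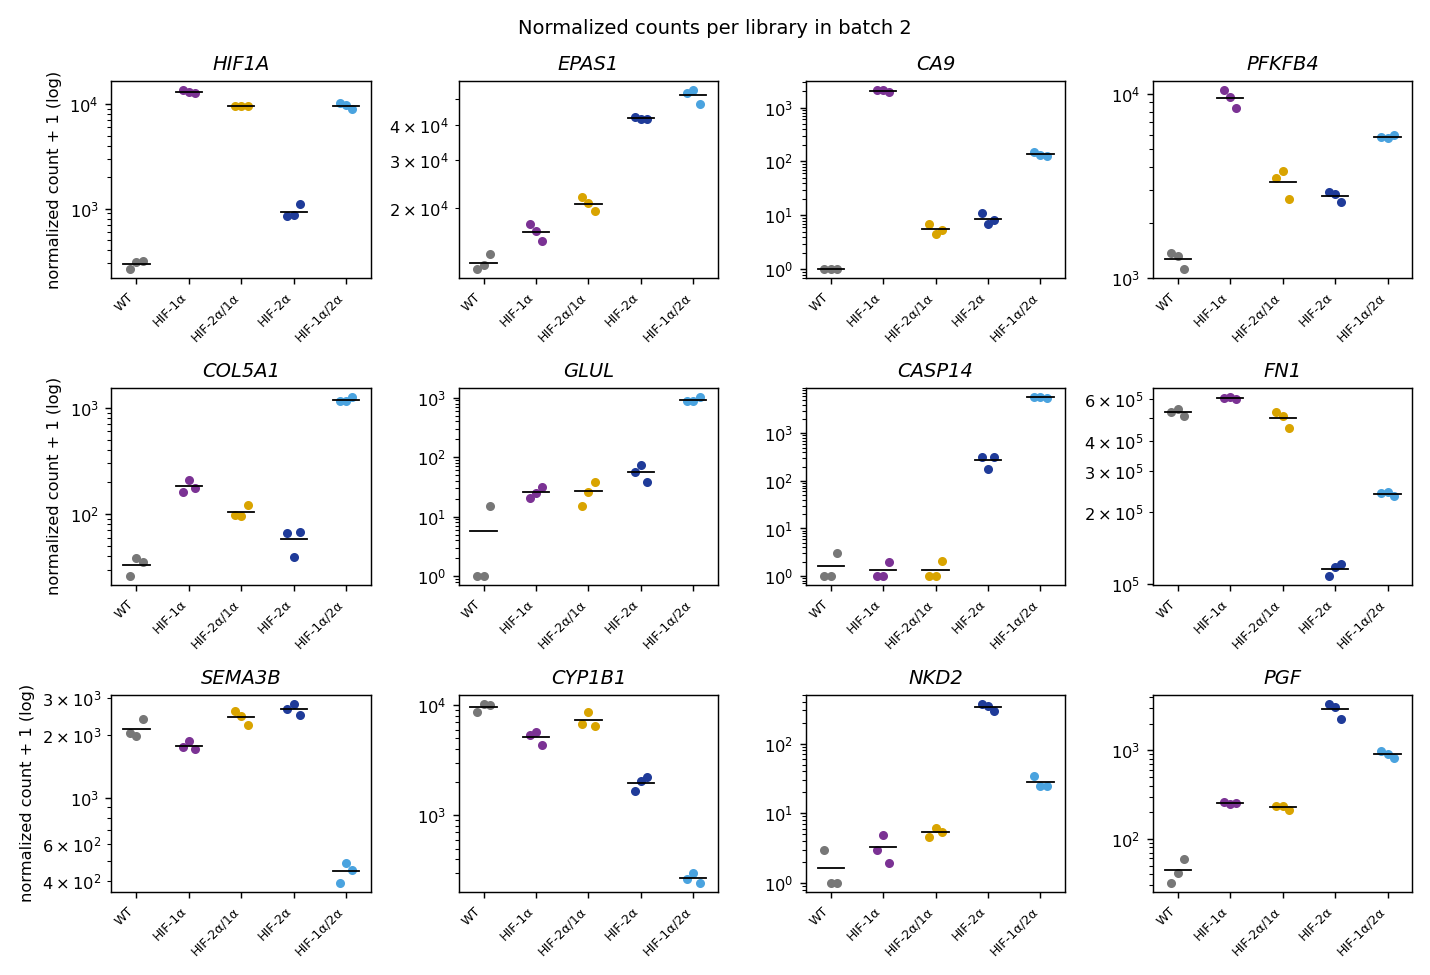
Normalized count plus 1 on a log axis for 12 genes in the 15 libraries of the second batch, with 1 point per library, 3 per group, and a bar at the group mean. HIF1A and EPAS1 show the transgenes. CA9, PFKFB4, COL5A1, GLUL, CASP14 and FN1 were higher in HIF-1α/2α than in HIF-2α and SEMA3B, CYP1B1, NKD2 and PGF lower, with no overlap of the 2 groups in any of these 10.

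Among the lower genes, NKD2, which restrains Wnt signalling, had 374, 342 and 293 normalized counts in HIF-2α and 33.2, 23.8 and 23.9 in HIF-1α/2α, and at most 5.17 in any other line. Its log2 difference was -3.62 ± 0.29 (edgeR, adjusted p = 1.87e-13). GRIN2A, an NMDA receptor subunit, had 319, 418 and 377 in HIF-2α and 64.7, 34.5 and 61.8 in HIF-1α/2α. PTH1R, the receptor of parathyroid hormone, had 233, 218 and 278 against 41.5, 45.2 and 26.0. In WT these genes stood at 0 to 6.74, so the chimera kept them above WT, but well below the level of HIF-2α. ALPG, a placental-type alkaline phosphatase, had 346, 396 and 400.2 in HIF-2α and 51.4, 78.5 and 70.5 in HIF-1α/2α. LRRC15, a leucine-rich membrane protein, had 1126, 1133 and 763 against 201, 201 and 125. CGB8, a β chain of chorionic gonadotropin, had 667, 637 and 629 against 110.2, 162 and 136. Its WT libraries held 149.6 to 183, so CGB8 in the chimera overlapped WT and did not stand above it. ALPG and CGB8 have near-identical copies in the genome, and how their reads were divided is uncertain. All 6 genes were called, with log2 differences from -3.62 to -2.26.

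Other lower genes went below WT in the chimera. SEMA3B (chromosome 3: 50267558-50277546), a secreted semaphorin, had 2666, 2823 and 2485 normalized counts in HIF-2α, 390.4, 488 and 450.2 in HIF-1α/2α and 1973 to 2378 in WT. Its log2 difference between the lines was -2.59 ± 0.09 (edgeR, adjusted p = 4.42e-26). ADAMTS2, which trims procollagen, had 836, 742 and 804 in HIF-2α, 77.1, 83.3 and 104 in HIF-1α/2α and 579.8 to 662 in WT. HHIPL2 had 367, 289.8 and 270.0 in HIF-2α, 14.9, 4.76 and 19.5 in HIF-1α/2α and 151 to 249.6 in WT, the largest fall among genes with a mean of at least 100 (log2 -4.52 ± 0.26, edgeR, adjusted p = 5.36e-18). CARMIL2, an actin regulator, had 464, 408 and 363 against 61.3, 64.2 and 71.6, with 119 to 192 in WT. In all 4 genes the chimera was the lowest of the 5 groups with no overlap with WT. CYP1B1 (chromosome 2: 38066973-38109902), a cytochrome P450 best known as a target of the aryl hydrocarbon receptor, fell in 2 steps, from 8759 to 10352 in WT through 1663, 2059.7 and 2230.1 in HIF-2α to 263, 297 and 243 in HIF-1α/2α. The difference between the lines was -2.89 ± 0.11 on the log2 scale (edgeR, adjusted p = 3.85e-24).

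The first batch, processed with another RNA extraction kit and sharing no library with the comparison, gave a list of genes that HIF-2α raises. There, 884 of 23410 genes tested (3.78%) were called higher in HIF-2α than in WT, and all 884 were tested in the second batch. With the HIF-1α structured domain on the HIF-2α IDR, 95 of them were called higher than in HIF-2α (10.7%, beside 1.05% of all genes) and 79 lower (8.94%, beside 1.04%). They made up 31.4% of all higher calls and 26.5% of all lower calls. The 95 include HIF1A, with its reads from the chimera's transgene. The median log2 difference of the 884 was -0.20, beside 0 over all genes, and 533 were below 0. Their spread, from -1.19 at the 10th percentile to 1.20 at the 90th, was close to the -1.22 to 1.14 of all genes tested. Among genes with a mean of at least 50 normalized counts it was wider, -0.97 to 1.19 for 770 of the 884 against -0.38 to 0.39 for all genes. Against WT, the 884 genes had a median log2 difference of 1.93 in HIF-2α and 1.73 in HIF-1α/2α, comparisons that share the WT libraries. In the second batch 747 of the 884 (84.5%) were called higher than WT in HIF-2α, beside 5.45% of all genes, and 634 (71.7%) in HIF-1α/2α, beside 5.1%. CASP14, SH2D1B, LHX5, FAM174B and AUTS2 were among the members that rose most and NKD2, GRIN2A, PTH1R, ALPG, LRRC15 and CGB8 among those that fell most.

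**Figure D2:**
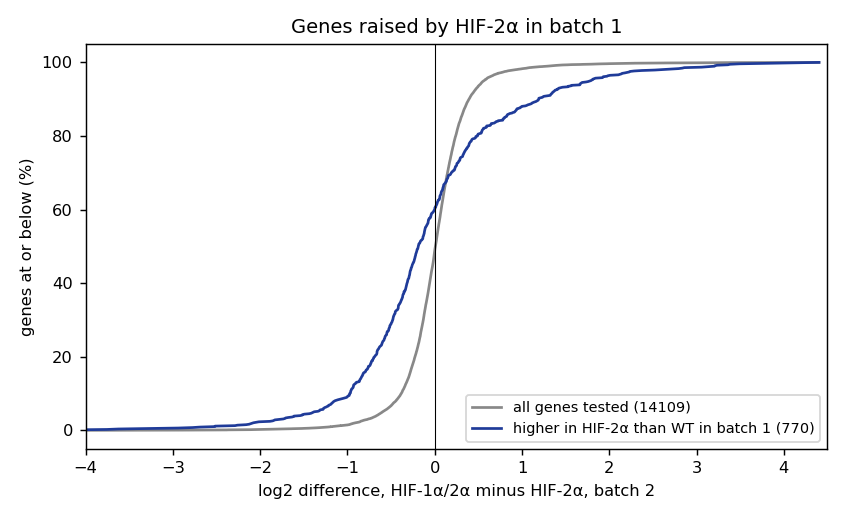
Cumulative share of genes (%) against the log2 difference HIF-1α/2α minus HIF-2α in the second batch, for genes with a mean of at least 50 normalized counts in the 6 libraries. The 770 genes called higher in HIF-2α than in WT in the first batch (blue) lie on both sides of 0, with quartiles at -0.57 and 0.33, against -0.17 and 0.19 for all 14109 genes (grey).

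Another list from the first batch, 490 genes (2.09%) called higher in HIF-2α than in HIF-2α R27E, a mutant with a changed DNA-binding residue, held 86 higher (17.6%) and 48 lower (9.8%) genes and had a median of -0.11. Of the 455 genes (1.94%) that HIF-2α lowered in the first batch, 21 were called higher (4.62%) and 36 lower (7.91%), with a median of -0.05. This lowered list was added after the data were seen.

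The same exchange was made on the HIF-1α IDR by HIF-1α against HIF-2α/1α, in 6 other libraries. There, 134 genes were called higher (0.467%) and 22 lower (0.0766%), fewer than on the HIF-2α IDR, although the difference between the counts was not tested. Genes called higher in both comparisons numbered 58, which is 19.1% of the 303 on the HIF-2α IDR and 43.3% of the 134 on the HIF-1α IDR, and 47 of them had a mean of at least 100. No gene was called lower in both (edgeR, 770 at an unadjusted p under 0.05, 20 of these also 2-fold lower in both, and 0 by DESeq2), and none was higher on the HIF-2α IDR and lower on the HIF-1α IDR (edgeR, 13 at an unadjusted p under 0.05 and 2-fold, and 0 by DESeq2). The 303 genes had a median log2 difference of 0.59 on the HIF-1α IDR and 262 of them were positive there. The 298 lower genes had a median of -0.08 and 172 were negative. Read the other way, the 134 genes had a median of 0.89 on the HIF-2α IDR, with 106 positive. The genes called higher on the HIF-2α IDR thus mostly had a positive difference on the other IDR too, while the lower genes lay on both sides of 0 there.

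CA9 (chromosome 9: 35673928-35681159), the carbonic anhydrase that acidifies the outside of hypoxic cells, had the largest difference on the HIF-1α IDR among the genes called higher on both, and the second largest, after NKX2-5, on the HIF-2α IDR. It had 9.91, 5.77 and 7.04 normalized counts in HIF-2α and 151, 133 and 123 in HIF-1α/2α, a difference of 4.12 ± 0.23 on the log2 scale (edgeR, adjusted p = 4.35e-18). On the HIF-1α IDR it had 5.91, 3.45 and 4.44 in HIF-2α/1α and 2095, 2112 and 1938 in HIF-1α, a difference of 8.80 ± 0.20 (edgeR, adjusted p = 1.99e-31). It was at 0 in all 3 WT libraries, stayed under 10 with the HIF-2α structured domain on either IDR and rose with the HIF-1α structured domain on both. PFKFB4 (chromosome 3: 48517684-48562015), which makes the activator of phosphofructokinase, had 2942, 2867 and 2575 in HIF-2α and 5820.1, 5752 and 5990.1 in HIF-1α/2α (log2 1.07 ± 0.08, edgeR, adjusted p = 9.50e-14). It had 3484, 3790.5 and 2694 in HIF-2α/1α and 10489.7, 9557 and 8352 in HIF-1α (log2 1.51 ± 0.08, edgeR, adjusted p = 5.76e-18). HHIP, an inhibitor of hedgehog ligands, had 66.4, 52.0 and 74.0 in HIF-2α and 526, 559 and 615 in HIF-1α/2α, and POU3F3, a neural POU factor, had 205, 324 and 331 against 1718, 1576 and 1633. Both were called on the HIF-1α IDR as well, with log2 differences of 2.24 for HHIP and 2.05 for POU3F3.

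Further members of the 58 were chosen after their values were seen because their roles are known. FAM162A, a mitochondrial protein induced in hypoxia, had 708, 656 and 688 normalized counts in HIF-2α and 1916, 1984 and 1934 in HIF-1α/2α, a rise of 2.84-fold beside 5.39-fold on the HIF-1α IDR. ANKRD37, a hypoxia-induced ankyrin protein, had 94.2, 105 and 86.9 against 355, 375 and 267, 3.48-fold beside 2.05-fold. PPP1R3C and PPP1R3G, which direct protein phosphatase 1 to glycogen, rose 3.51-fold and 4.20-fold beside 2.55-fold and 3.10-fold. All 4 were called on both IDRs. NOG, a secreted inhibitor of bone morphogenetic proteins, had 1347, 1312 and 1457 in HIF-2α and 7674, 7605 and 10043 in HIF-1α/2α. SLC38A5, a glutamine transporter, had 3924, 3752 and 4709 against 19049, 20948 and 24161. WNT5B, a Wnt ligand, rose 2.65-fold, PTK7, a receptor of that pathway, 6.68-fold, and the cardiac homeobox factor NKX2-5 from 4.96 to 10.4 up to 111 to 204. HAS2, which makes hyaluronan, rose 3.18-fold and MXRA5, a matrix protein, 8.33-fold.

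Promoters of 3 of these genes are shown because they carry the HIF core motif in different numbers. The RefSeq promoter sequences (GRCh38.p14) were cut to the 250 bases before the annotated start and searched for ACGTG and GCGTG on both strands. Capitals mark the matches, as read on the printed strand, so that a match on the other strand reads CACGT or CACGC. CA9 holds a single ACGTG, on the strand opposite the gene (chr9:35673678-35673927, plus strand).
CA9: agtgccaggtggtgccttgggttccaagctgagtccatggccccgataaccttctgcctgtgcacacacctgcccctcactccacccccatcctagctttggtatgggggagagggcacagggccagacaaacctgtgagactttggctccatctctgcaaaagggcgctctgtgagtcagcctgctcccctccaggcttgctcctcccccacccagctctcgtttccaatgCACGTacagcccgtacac
PFKFB4 holds a single GCGTG (chr3:48556804-48557053, minus strand). The RefSeq start behind this window lies inside the gene span given above, which is that of GENCODE.
PFKFB4: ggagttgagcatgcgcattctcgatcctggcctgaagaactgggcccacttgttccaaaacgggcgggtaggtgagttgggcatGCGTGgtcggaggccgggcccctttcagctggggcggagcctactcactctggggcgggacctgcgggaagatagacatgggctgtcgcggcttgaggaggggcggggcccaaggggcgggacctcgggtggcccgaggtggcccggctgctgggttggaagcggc
ANKRD37 holds 3 matches to ACGTG, of which a pair overlap in the palindrome CACGTG (chr4:185396591-185396840, plus strand).
ANKRD37: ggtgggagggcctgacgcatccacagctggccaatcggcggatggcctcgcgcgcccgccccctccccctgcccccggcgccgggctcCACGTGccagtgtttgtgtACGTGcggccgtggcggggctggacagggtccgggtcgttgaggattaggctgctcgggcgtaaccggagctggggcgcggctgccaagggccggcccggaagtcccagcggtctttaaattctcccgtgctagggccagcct

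Over all genes the motif was common. ACGTG or GCGTG was found in 45.2% of the 188 higher genes with a promoter in the table, in 45% of the 191 lower genes and in 42.9% of the 42 with a promoter among the 58, beside 53.7% of 13544 tested genes and 43.1% of all 27305 promoters. ACGTG alone was found in 17.6%, 17.3% and 23.8% of the 3 sets, beside 22.1% and 18.7%. The window is short, and the shares say nothing of which protein was bound there.

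The exchange ran in opposite directions on the 2 IDRs for 6 genes, all lower with the HIF-1α structured domain on the HIF-2α IDR and higher with it on the HIF-1α IDR (2.01% of the 298 and 4.48% of the 134). They were SERPING1, PTGIS, GRIN2A, KISS1R, KRT81 and VWA1. PTGIS, prostacyclin synthase, had 124, 109.7 and 129 normalized counts in HIF-2α and 5.80, 2.38 and 10.8 in HIF-1α/2α. It had 35.5, 46.5 and 71.0 in HIF-2α/1α and 190.0, 167 and 191 in HIF-1α. KISS1R, the kisspeptin receptor, had 434, 449 and 258 in HIF-2α against 81.2, 126 and 70.5 in HIF-1α/2α, and 40.2, 34.5 and 28.9 in HIF-2α/1α against 108, 124 and 66.4 in HIF-1α. KRT81, a hair keratin, and VWA1, a matrix protein, had smaller opposite differences, with log2 values of -1.53 and 1.20 for KRT81, and a rise of 2.82-fold on the HIF-1α IDR beside a log2 difference of -1.19 on the HIF-2α IDR for VWA1. SERPING1, the C1 inhibitor, did not pass the floor in any library of HIF-1α/2α and stood at 7.93 to 19.9 in HIF-2α. PTGIS, KISS1R, KRT81, VWA1 and SERPING1 were named after their values were seen.

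**Figure D3:**
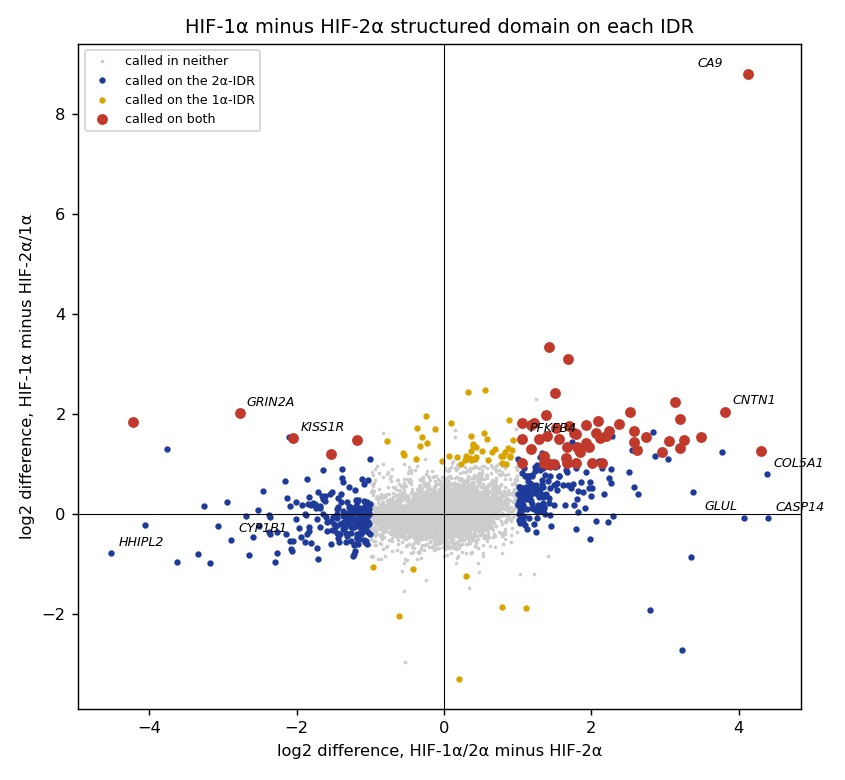
Log2 difference HIF-1α/2α minus HIF-2α (x) against HIF-1α minus HIF-2α/1α (y), with 1 point per gene with a mean of at least 50 normalized counts in the 6 libraries of the x axis. Genes called in both (red) lie mostly at the upper right with CA9 at 4.12 and 8.80, those called on the HIF-2α IDR (blue) spread left and right along the x axis, and GRIN2A and KISS1R lie at the upper left.

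The difference between the 2 exchanges was tested directly as an interaction. It was positive and called for 89 genes (0.31%) and negative and called for 249 (0.867%), 338 in all (1.18%). Of the 303 genes higher on the HIF-2α IDR, 73 had a positive interaction that was called, and of the 298 lower genes, 153 had a negative one. COL5A1 (interaction 3.57 ± 0.24 on the log2 scale, edgeR, adjusted p = 3.78e-15) and GLUL (4.14 ± 0.47, edgeR, adjusted p = 9.61e-09) rose on the HIF-2α IDR far more than on the other, where GLUL differed by -0.06. CA9 had the reverse, with an interaction of -4.67 ± 0.50 (edgeR, adjusted p = 4.58e-09). SEMA3B (-2.14 ± 0.12, edgeR, adjusted p = 5.49e-18) and CYP1B1 (-2.39 ± 0.14, edgeR, adjusted p = 1.18e-16) fell more on the HIF-2α IDR. CASP14 and LHX5, close to absent with the HIF-1α IDR, gave interactions that did not pass (edgeR, adjusted p = 0.370 and 0.0433). Exchanging the IDR behind the HIF-1α structured domain instead, HIF-1α/2α against HIF-1α, called 505 genes higher (1.76%) and 831 lower (2.89%), 1336 in all (4.65%) against 601 for the structured domain, comparisons that share the chimera's libraries.

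The gene lists by function are read against the 2.09% of all genes called in either direction. Among 22 genes of glucose uptake and glycolysis, PFKFB4 was higher and ALDOC, the brain form of aldolase, lower (9.09% of the list), with a list median of 0.08 beside 0 over all genes. ALDOC had 276, 266 and 154 normalized counts in HIF-2α and 98.7, 112 and 97.6 in HIF-1α/2α (log2 -1.19 ± 0.18, edgeR, adjusted p = 1.89e-06). Both lines with the HIF-1α IDR stood higher, HIF-1α at 2789 to 3687 and HIF-2α/1α at 2101 to 3296. PDK1, the kinase that blocks pyruvate entry into mitochondria, differed by 0.99 and PFKFB3 by 0.65, short of 2-fold, and SLC2A1, the main glucose transporter, by -0.22. Differences in both directions stood in the list, and 14 of the 22 genes had an adjusted p of at most 0.01 in edgeR, most of them short of 2-fold. CA9 alone was called among 10 genes of pH, mitochondria and mitophagy (median 0.28), where CA12 differed by 0.92, BNIP3L by 0.65 and MXI1 by -0.93. HIF1A alone, whose reads include the chimera's transgene, was called among 9 genes of HIF subunits and oxygen sensing (median 0.19). EGLN1, the main oxygen-sensing prolyl hydroxylase, stood at 0.84 and ARNT2 at -0.84.

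Among 18 angiogenic ligands and receptors (median 0.08), PGF was called lower. PGF, placental growth factor, had 3375, 3061 and 2257 normalized counts in HIF-2α, 992, 912 and 808 in HIF-1α/2α and 30.8 to 58.1 in WT, a difference between the lines of -1.68 ± 0.11 (edgeR, adjusted p = 4.94e-16). VEGFA differed by 0.39 and NRP1 by 0.88, neither called. Among 15 growth factor and cell cycle genes linked to HIF-2α (median -0.27), IGFBP1, which binds insulin-like growth factors, was called lower, with 2679.8, 2751 and 2135 against 1330.5, 1294 and 929.6. TGFA differed by -0.60, CCND1 by 0.01 and MYC by 0.45. The fall of IGFBP1 was under 2-fold, at -0.94, without HIF-1α/2α replicate 3.

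Of 29 collagen chains (median -0.17), COL5A1 and COL13A1 were higher and COL1A1 and COL23A1 lower (13.8% of the list). COL13A1, a transmembrane collagen, had 579, 535 and 449.5 normalized counts in HIF-2α and 2056, 2189 and 1950.4 in HIF-1α/2α. COL1A1, the main fibrillar chain, had 1142, 1196 and 1289.9 against 497, 534 and 613, with 507 to 606 in WT. COL23A1, another transmembrane collagen, had 105, 68.1 and 86.9 against 17.4, 17.8 and 24.9. COL23A1 lost its call without HIF-1α/2α replicate 1 or 2 or HIF-2α replicate 1 (log2 from -2.04 to -1.95). None of 12 collagen-modifying enzymes was called by edgeR or DESeq2, although 10 had an unadjusted p under 0.05 in edgeR (median -0.28, LOX, a collagen cross-linking oxidase, at -0.96). Of 18 genes of the epithelial-mesenchymal programme and adhesion (median 0.09), FN1, fibronectin, and ITGB6, an integrin chain, were higher (11.1%). FN1 had 107643, 117897 and 120887 in HIF-2α, 242426, 243137 and 235048 in HIF-1α/2α and 510264 to 546509 in WT, so the chimera stood between HIF-2α and WT. ITGB6 had 221, 248 and 288 in HIF-2α and 639, 534 and 657 in HIF-1α/2α.

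Of 40 axon guidance ligands and receptors (median 0.02), 3 were higher and 5 lower, which is 20% of the list beside 2.09% of all genes. SLIT2, a repellent ligand, had 369, 354 and 337 normalized counts in HIF-2α and 1087, 1021 and 871 in HIF-1α/2α. The netrin receptors UNC5A and UNC5B were lower, with 166, 144 and 130.3 against 48.1, 28.6 and 55.3 for UNC5B, and 21.8, 16.2 and 14.1 for UNC5A, which was at or under 3 counts in HIF-1α/2α and therefore at least 4.86-fold lower. SEMA3B is given above, and NTN1 (1.24), ROBO4 (1.11), NTN4 (-1.19) and SEMA3F (-1.09) complete the 8. Of 25 extracellular proteases and inhibitors (median -0.26), MMP9, a gelatinase, had 532, 517 and 511 in HIF-2α and 1485, 1855 and 1609.8 in HIF-1α/2α, and TIMP3, an inhibitor of such enzymes, 172, 203 and 176 against 429, 539 and 440.4. Both a protease and an inhibitor were thus higher in the chimera.

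Of 23 chemokines and interleukins (median 0.15), 3 were called (13%). CXCL5, a neutrophil attractant, was higher, with 1735, 1741 and 2482 normalized counts in HIF-2α, 4892, 4674 and 5079 in HIF-1α/2α and 11128 to 13877 in WT. IL18 was lower, with 146, 129 and 156 against 63.8, 83.3 and 27.1, but fell short of 2-fold without HIF-1α/2α replicate 3 (-0.99). CXCL16 was lower by 1.01 on the log2 scale, at the edge of the call, and lost it without HIF-1α/2α replicate 1 or 2 or HIF-2α replicate 2 or 3 (from -1.07 to -0.75). No member was called by edgeR or DESeq2 among 29 interferon-stimulated genes (median 0.26), 19 genes of the unfolded protein and amino acid stress responses (-0.14), 22 of DNA replication and mitosis (0.09), 20 of lipid storage and fatty acid handling (0.03) and 13 oxygen-dependent histone demethylases (-0.01). In edgeR, 19, 12, 9, 13 and 5 of them had an unadjusted p under 0.05, in that order. Among markers of other cell types only PDGFRB, of stromal cells, was called, with 50.6, 42.7 and 51.6 in HIF-2α, 29.0, 13.1 and 15.2 in HIF-1α/2α and 76.0 to 102 in WT, and it lost the call without HIF-1α/2α replicate 2 or 3 (-1.10 and -1.14). The part of this marker list in the other results was not tested.

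**Figure D4:**
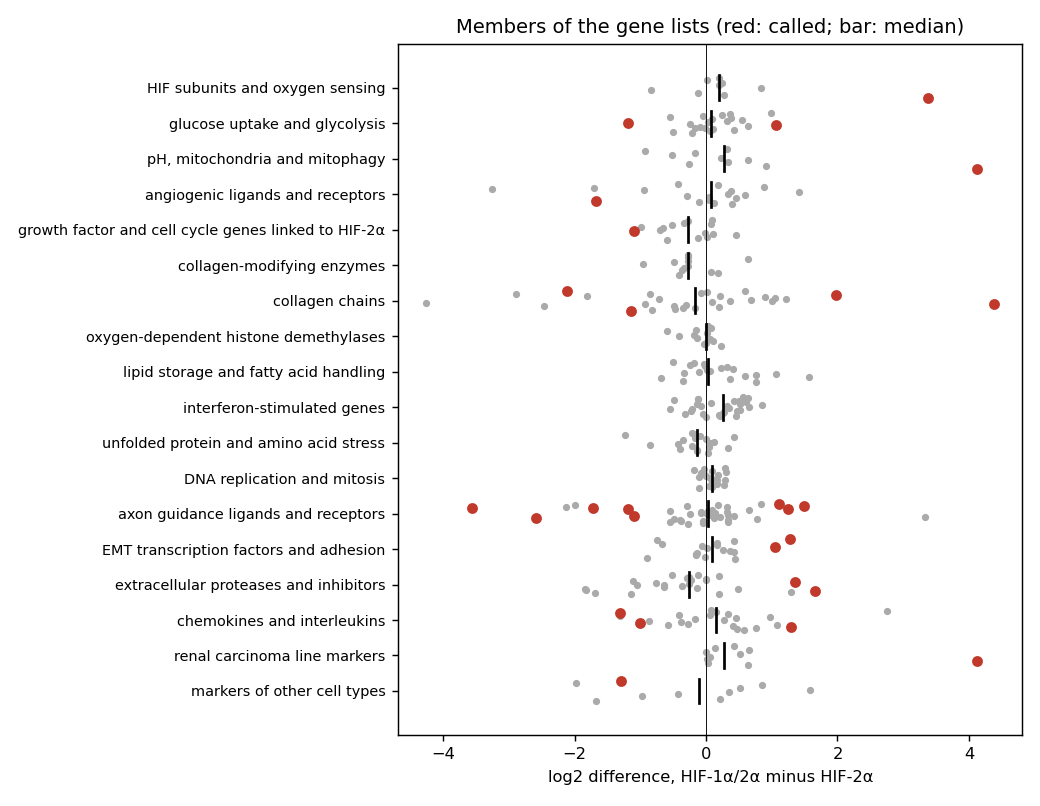
Log2 difference HIF-1α/2α minus HIF-2α for the tested members of 18 gene lists, with 1 point per gene, red where called, and a black bar at the list median. Medians lie between -0.28 and 0.28 in every list, and the called members lie on both sides of 0 in the lists of glycolysis, collagen chains, axon guidance and chemokines.

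A list of 8 genes held PPFIA4, PTPRN, HSD3B7, PLXNA2, PGK1 and TGFA, which the study's text names, with CPE and GPRC5C added. None of the 8 was called on the HIF-2α IDR (0 by edgeR and by DESeq2, with 6 of the 8 at an unadjusted p under 0.05 in edgeR), and their median was -0.62. CPE, carboxypeptidase E, was closest to a call, with 27373, 28968 and 24107 normalized counts in HIF-2α, 14808, 14825 and 12580.1 in HIF-1α/2α and 183 to 236 in WT (log2 -0.93 ± 0.07, edgeR, adjusted p = 1.63e-13). Both lines stood far above WT, and the groups did not overlap. PPFIA4 had 476, 582 and 508 against 342, 257 and 289, HSD3B7, a bile acid enzyme, 7125, 6646 and 6182 against 4379, 4271 and 4244, and TGFA 86179, 89551 and 80467 against 62714, 58003 and 48162. For these 4 genes HIF-1α/2α held less than HIF-2α by less than 2-fold. PGK1, a glycolytic enzyme with processed copies in the genome, had 74342, 68302 and 69465 in HIF-2α and 103075, 103662 and 101849 in HIF-1α/2α (log2 0.54 ± 0.04, edgeR, adjusted p = 3.77e-13). The semaphorin receptor PLXNA2 (-0.05 ± 0.07) and GPRC5C (-0.18 ± 0.21) overlapped between the lines. PTPRN did not pass 3 counts in any library of HIF-1α/2α and stood at 3.46 to 5.87 normalized counts in HIF-2α, at least 1.33-fold lower and not called (edgeR, adjusted p = 0.0847).

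The difference was not spread evenly over the genome. On chromosome 14, which holds HIF1A and PGF, the median log2 difference of 446 genes with a mean of at least 50 normalized counts was 0.32, and 84.3% of them were above 0. The next chromosome, 6, had a median of 0.15 and the lowest, 13, -0.12. Along chromosome 14, bins of 10 Mb had medians from 0.25 to 0.38, apart from the first bin, which held 3 genes and had -0.42. Against WT the chromosome had a median of 0.43 in HIF-1α/2α and 0.13 in HIF-2α, and in HIF-1α against HIF-2α/1α it was 0.09. The whole chromosome was thus shifted by a small amount in the HIF-1α/2α line. Few calls lay there, 15 higher and 9 lower of 899 tested genes, which is 4.95% of the higher calls beside 3.13% of the tested genes, and 288 higher and 289 lower genes were called off the chromosome. The 15 include HIF1A, with its transgene reads. RTL1, PAX9 and DACT1 of the 58 lie on it. Its part in the results was not tested beyond these counts.

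**Figure D5:**
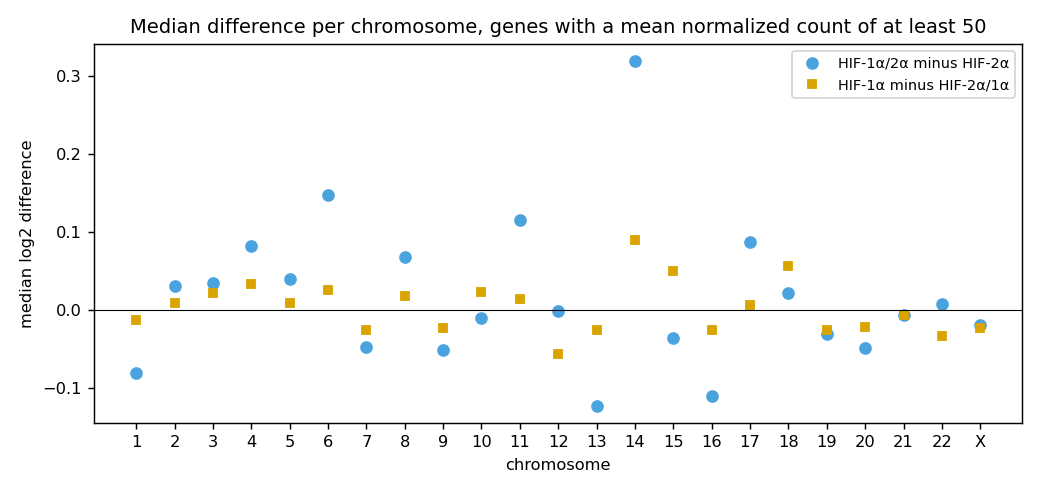
Median log2 difference per chromosome for genes with a mean of at least 50 normalized counts, for HIF-1α/2α minus HIF-2α (circles) and HIF-1α minus HIF-2α/1α (squares). Chromosome 14 stands at 0.32 for the first and at 0.09 for the second, and the other chromosomes lie between -0.12 and 0.15 for the first.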

How the data were processed

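Poly(A) RNA-seq of 786-O cells was compared between 3 HIF-1α/2α and 3 HIF-2α libraries. The authors aligned reads to hg38 with STAR (2.7 in the submitters' processing notes), kept unique alignments and counted them per GENCODE gene with HTSeq (0.11.1) in union mode without strand. The deposited files hold raw read counts for 60609 genes, and 60295 of these gene IDs were matched to GENCODE v44 for positions. No column of the files came from another series (0).

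Counts of the 15 second-batch libraries were fitted together with edgeR 4.0.16 in R 4.3.3 (TMM, glmQLFit, 1 mean per group), which tested 28724 genes whose mean normalized count reached 0.5. All groups entered so that they shared 1 estimate of spread. Calls needed an adjusted p (Benjamini-Hochberg) up to 0.01 and a difference of 2-fold or more. The standard error is the log2 difference over the square root of F. The 27 first-batch libraries were fitted apart. The floor was 3 counts per library, and it covers counting error only. Counts in all 15 libraries summed to 76366799 to 109642159. Replicates differed by more than sampling noise, with a chi-square per degree of freedom of 4.50 to 35.3. The highest value was that of HIF-1α/2α replicates 1 and 3, and pairs of HIF-2α libraries had 9.95 to 14.0.

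Genes were named by rule. They were the HIF genes and 8 genes of which the study's text names 6, the 10 called genes with the largest difference in each direction, 6 in each direction among the genes raised in batch 1, 5 in each direction among genes called on both IDRs, at most 4 called members of each list and the 4 with the largest interaction. A mean normalized count of at least 100 was asked, with no overlap between the groups for all but the interaction, outside the first group and the lists. Other genes named in the text were chosen after their values were seen. Members and lists were chosen with earlier results of these data known.

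Alternatives were DESeq2 1.42.0, RLE size factors, no filter or a minimum of 10, a replicate block, only the groups compared and leaving out each library.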

Additional observations from a re-analysis of the deposited data

Results flagged for a closer look

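For 31 of the named genes the difference between lines with the HIF-1α and the HIF-2α structured domain was not the same on the HIF-2α IDR and on the HIF-1α IDR. This was tested as an interaction between groups of 12 libraries, within edgeR's quasi-likelihood fit of the whole second batch. A call needed a Benjamini-Hochberg adjusted p of at most 0.01 and an interaction of at least 2-fold. Named genes outside the 31 can therefore differ between the IDRs by less than 2-fold. Examples are FN1 (0.77, edgeR, adjusted p = 5.57e-12) and COL1A1 (-0.99, edgeR, adjusted p = 2.78e-06). Each value is the log2 difference on the HIF-2α IDR minus that on the HIF-1α IDR.

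Among genes called lower on the HIF-2α IDR, the interaction was -4.79 for GRIN2A, -3.82 for UNC5A, -3.74 for HHIPL2, -2.66 for PTH1R, -2.61 for ALPG, -2.39 for CYP1B1, -2.29 for LRRC15, -2.21 for ADAMTS2 and -2.14 for SEMA3B. It was -2.11 for CXCL16, -1.90 for CGB8, -1.85 for PGF, -1.84 for CARMIL2, -1.63 for UNC5B, -1.44 for ALDOC, -1.36 for IGFBP1 and -1.13 for IL18. On the HIF-1α IDR the difference was positive for GRIN2A (2.02), which was called there, and for CXCL16 (1.11), IGFBP1 (0.27), UNC5A (0.27), ALDOC (0.25), PGF (0.17) and ALPG (0.088), which were not. UNC5A did not pass the floor in any HIF-1α/2α library, so its fitted value is no bound.

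CA9 was called higher on both IDRs and had -4.67, since its rise was larger on the HIF-1α IDR. PTPRN (-4.28) and PPFIA4 (-1.20) were not called on the HIF-2α IDR. PTPRN did not pass the floor in any HIF-1α/2α library.

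Among genes called higher on the HIF-2α IDR, the interaction was 4.21 for SH2D1B, 4.14 for GLUL, 3.57 for COL5A1, 2.93 for HIF1A, 1.94 for FAM174B, 1.78 for TIE1, 1.76 for CNTN1, 1.34 for COL13A1, 1.30 for AUTS2, 1.30 for SLIT2 and 1.09 for ITGB6. HIF1A reads include the transgenes, which the lines carry in different parts. SH2D1B held only a few reads in the lines with the HIF-1α IDR, so its value rests on counts near the floor.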

How the results depend on the processing

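The counts of called genes on the HIF-2α IDR were 293 higher and 327 lower by DESeq2, with 576 of the 601 edgeR calls made by both in the same direction, and 256 to 295 higher and 264 to 291 lower with a library of either line left out. A fold of at least 1.5 in place of 2, added after the data were seen, gave 572 higher and 672 lower genes. The number of genes lower in HIF-1α than in HIF-2α/1α, 22, was the least stable count. It was 8 by DESeq2, 38 with no filter on low counts, 9 with a mean of at least 10 and 34 with a replicate block, and 10 to 24 with a library left out, with 12, 10 and 11 without HIF-1α replicates 1, 2 and 3 and 10 without HIF-2α/1α replicate 3. Genes lower in both comparisons, 0, came to 1 with the replicate block and 0 to 2 with a library left out, and the 6 opposite genes to 12 with the block and 5 to 9. The cause of these changes was not tested. The list of genes raised over R27E is shorter, 490 genes in place of 884, and held 48 lower genes in place of 79, a share of 9.8% beside 8.94%.

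By the rule that every pair must pass 0.1, the replicate number did not pair the samples. Same-numbered HIF-1α/2α and HIF-2α libraries had correlations of -0.11, 0.08 and 0.09 in their deviations from the group means, and HIF-1α and HIF-2α/1α libraries 0.05, 0.16 and 0.23, and not every library correlated best with its own number. The block gave 324 higher and 346 lower genes.

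Of 52 named genes, 44 kept direction and call in all 11 alternatives run for them. With a library left out, PLXNA2 ranged from -0.11 to 0.037, positive without HIF-1α/2α replicate 3, and GPRC5C from -0.36 to 0.064, positive without HIF-2α replicate 1. CPE passed 2-fold without HIF-2α replicate 3, and PDGFRB lost its call (-1.31) when only the 2 lines were fitted. With 3 libraries a line, differences in genes of few reads carry errors near 1 on the log2 scale, as for PTPRN (0.86).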
